A study of Mus musculus with 2 samples.

Results

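The 10 genes described here are those of dendritic cell maturation and costimulation: the chemokine receptor *Ccr7*, the chemokines *Ccl17* and *Ccl22*, the actin-bundling protein gene *Fscn1*, the receptor gene *Cd40*, the costimulatory ligand genes *Cd80* and *Cd86*, the genes of both PD-1 ligands, *Cd274* and *Pdcd1lg2*, and *Il12b*, which encodes the p40 subunit of interleukin-12 and interleukin-23. They were chosen by name from what is known of these cells and not by a rule on measured values, but with earlier results of these data known. The study had used *Ccr7* and *Ccl22*, in these same data, to name its dendritic cluster. All 10 were among the 31053 genes counted. Single cells of mouse back-skin wounds were captured 5 days after full-thickness excision in 1 library labelled PBS and 1 labelled DTX, each from sorted live cells (negative for the dye 7AAD) of 3 pooled mice. Per the labels, both libraries came from *Mrc1-DTR* mice 7 to 9 weeks old of the C57BL/6 strain, given PBS or Diphtheria toxin. The study's text describes the controls instead as wild-type mice that also received the toxin, so the genotype and the treatment of the PBS library are not settled, and the libraries are called by their labels throughout. In *Mrc1-DTR* mice the *Mrc1* promoter, that of CD206, drives the receptor for diphtheria toxin, and the toxin can kill any cell that uses it, whether a macrophage or a dendritic cell. The study reports that the depletion of CD206-bearing cells was only partial.

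Dendritic cells sample antigen in the skin and, once stimulated, mature: they gain *Ccr7*, which guides them along *Ccl19* and *Ccl21* to the draining lymph node, and *Fscn1*, which reshapes their actin cytoskeleton. Mature cells raise the ligands that a T cell reads beside its antigen. CD80 and CD86 bind CD28 for costimulation or CTLA-4 for restraint, CD40 receives the T cell's CD40 ligand, and PD-L1 (*Cd274*) and PD-L2 (*Pdcd1lg2*) restrain T cells through PD-1, while CCL17 and CCL22 attract cells with the receptor CCR4. Several of these genes are also used outside dendritic cells, since activated macrophages carry CD40, CD80 and CD86, and endothelial and other non-immune cells use fascin.

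The PBS library held 12058 barcodes with a median of 7649 UMIs (unique molecular identifiers, each counting 1 RNA molecule) and the DTX library 11031 with a median of 6502. The study's text assigns these cell totals to the opposite groups, although it gives the larger share of immune cells to the depleted group, the one labelled DTX here. Its stated upper limit on genes per cell would leave 2480 cells in each library. Without that upper limit and after removal of likely doublets, 7944 and 6613 cells were used, and 13 of their barcodes occurred in both libraries. Immune cells were 33.6% of the cells used in the PBS library and 83.8% in the DTX library. *Mrc1*, the gene whose promoter drives the toxin receptor, stood at 497 CPM in the macrophage-like cells of the PBS library and 434 in those of the DTX library, at 215 and 195 in dendritic-like cells, and at 8 and 18 in mature dendritic-like cells. With 1 library per group no difference between the libraries can be tested, since it holds differences between mice, captures and sorts together with the treatment. Levels in CPM are the sum of a gene's UMIs over the cells of a class per 1000000 UMIs of that class, and all intervals are 95% intervals for counting error only.

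Clusters were formed without the 10 genes, without 32 listed genes of their pathway and without 14 of their partners, and were named from markers. The dendritic-like class had 450 cells in the PBS library and 472 in the DTX library, which were 16.8% (interval 15.4 to 18.3) and 8.51% (7.79 to 9.28) of the immune cells. Of all cells used the class made up 5.66% (5.17 to 6.20) and 7.14% (6.53 to 7.78), so the direction depended on the denominator. Its leading genes were *Mgl2*, *H2-Ab1*, *Cd74*, *Cd209a* and *Tbc1d4*, and 10 of 15 dendritic markers but also 8 of 10 macrophage markers were raised in it. Within the class, 77 and 69 cells formed a mature dendritic-like subcluster, which had 11 of 12 markers of mature cells raised, among them *Cacnb3*, *Socs2* and *Il4i1*. Their share of the immune cells was 2.88% (2.28 to 3.59) in the PBS library and 1.24% (0.970 to 1.57) in the DTX library, and their share of the dendritic-like cells 17.1% and 14.6%. Of all cells used they were 0.969% (0.766 to 1.21) and 1.04% (0.813 to 1.32). The PBS share of immune cells depended on the clustering and filter, at up to 4.11%, and the DTX share reached at most 1.65%. The immune cells of the DTX library held 4408 macrophage-like cells in place of 1713, and fewer mature cells and more of the other immune cells cannot be told apart from a share.

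The remaining dendritic-like cells fell into 4 other subclusters. The largest, cluster 0 with 258 and 293 cells, makes up most of the 373 and 403 other dendritic-like cells used for comparison below. Its markers gave it the name of macrophages inside the dendritic-like class, with 6 of 10 raised and *Cd14* among its leading genes. As 5 of 10 markers of type 2 dendritic cells were raised in it too, it is called by its number. Its *Lyz2* level was 4187 CPM in the PBS library and 2249 in the DTX library, against 8478 and 7769 in macrophage-like and 74 and 243 in mature dendritic-like cells. *Cd209a*, a type 2 dendritic marker, stood at 426 and 411 CPM in it. The type 1 dendritic-like cells were 61 and 52 and had 6 of 10 markers raised, among them *Xcr1* and *Clec9a*. Cluster 3, with 30 and 42 cells led by *Ctsk*, *Acp5* and *Top2a*, was unnamed. It had 4 of 10 macrophage markers raised but none among its leading genes. The plasmacytoid-like cells were 24 and 16, too few in the DTX library for a comparison between the libraries, and had 5 of 6 markers raised. They also had 6 of 10 type 2 dendritic markers raised, with *Cd209a* at 966 CPM and *Mgl2* at 1168 CPM in the PBS library, and *Siglech* was found in 5 of the 24 and 8 of the 16 cells. Langerhans-like cells, 123 and 38, formed a class of their own.

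**Figure D1:**
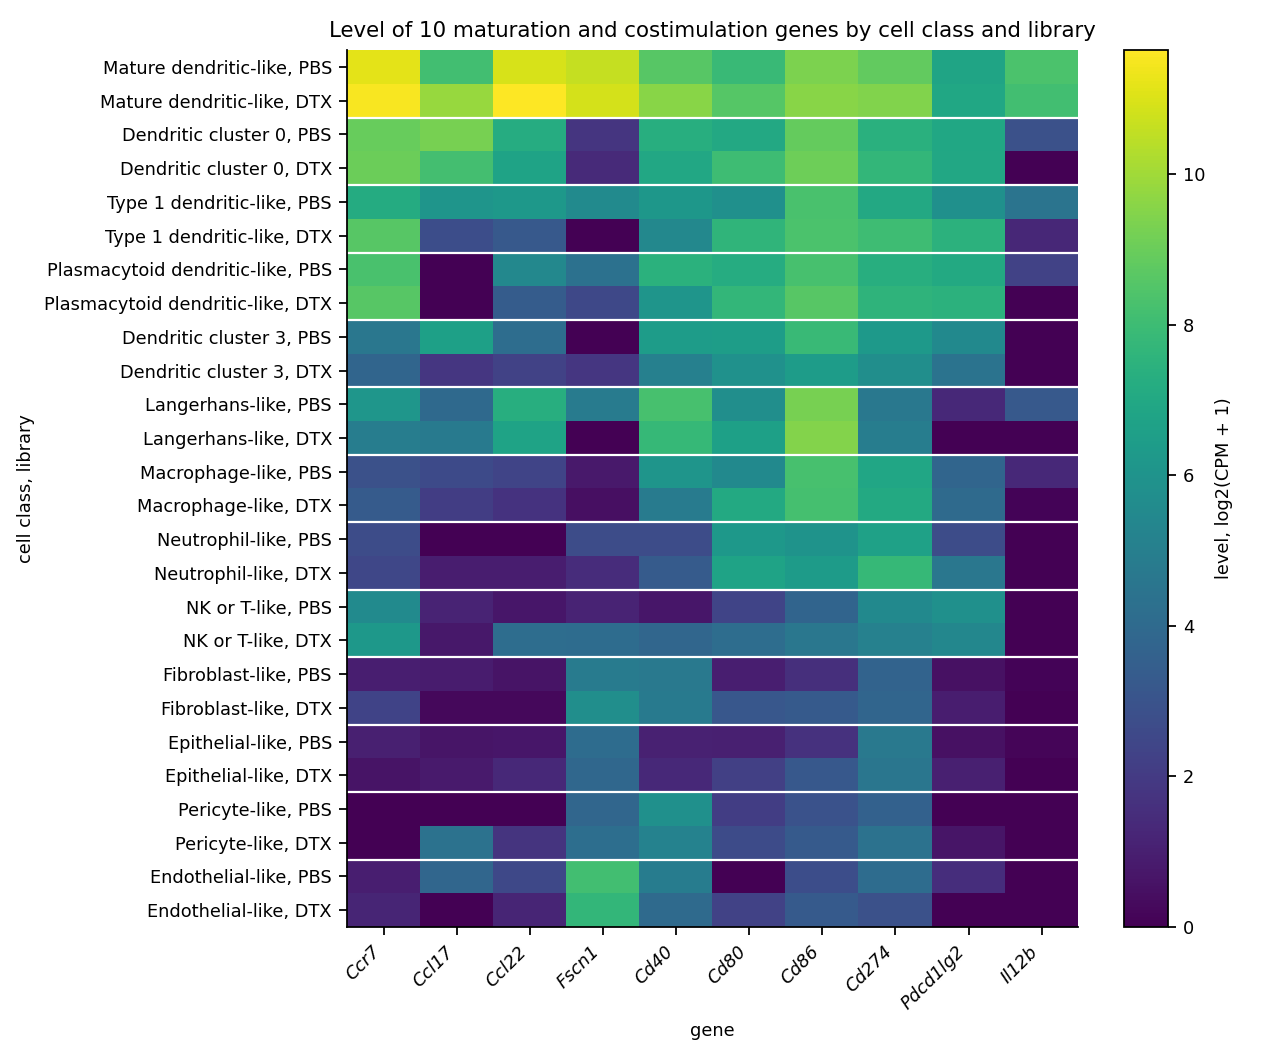
Level of each gene, as log2(CPM + 1) by colour, in 13 cell classes or subclusters of each library (rows in pairs, PBS above DTX). The mature dendritic-like rows are the brightest for *Ccr7*, *Ccl22*, *Fscn1* and *Il12b*, whereas *Cd80*, *Cd86* and *Cd274* are bright in several myeloid classes and *Fscn1* also in endothelial-like cells.

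Levels of each gene were first set side by side within a library, between the mature dendritic-like cells and the other dendritic-like cells. These clusters were cut from other genes of the same cells, so the differences are descriptions. Of the 10 genes, 7 were at least 2-fold higher in mature cells in the PBS library, where 9.83% of the 5993 genes with enough UMIs were, and 7 in the DTX library, where 9.13% of 6835 were. *Ccr7*, *Ccl22*, *Fscn1*, *Cd40*, *Cd274* and *Il12b* passed 2-fold in both libraries. *Cd80* passed it only in the PBS library, at a log2 ratio of 1.11 (0.82 to 1.39) against 0.85 (0.65 to 1.04) in the DTX library, and its PBS value fell below 2-fold under each of 5 other clusterings or filters. *Ccl17* passed it only in the DTX library, where 1 cell carried the difference, as described below. *Cd86* and *Pdcd1lg2* did not pass it in either library.

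*Ccr7*, the homing receptor, stood at 2294 CPM (2174 to 2418) in the mature cells of the PBS library and 3001 (2877 to 3128) in those of the DTX library. Its log2 ratio to the other dendritic-like cells was 2.72 (2.61 to 2.84) and 2.87 (2.78 to 2.95). After every cell was thinned to 2000 UMIs, which kept 74 of 77 and 69 of 69 mature, 1492 of 1713 and 4276 of 4408 macrophage-like and 2984 of 3066 and 649 of 655 fibroblast-like cells, 90.5% and 98.6% of mature cells held a *Ccr7* UMI. Before thinning the shares were 97.4% and 100%. Of fibroblast-like cells, which serve here as a background from free RNA, 0.134% and 0.308% held one after thinning, from median depths of 11177 and 13960 UMIs beside 6797 and 9920 in mature cells. The receptor was therefore present in nearly every cell of a cluster that was formed without it. It was not confined to that cluster: cluster 0 stood at 492 CPM (462 to 523) and 517 (492 to 543), and 32.1% and 27.1% of its thinned cells held a UMI. Dendritic-like cells of all subclusters held 90.0% and 90.4% of all *Ccr7* UMIs, and the mature cells alone 47.8% and 48.4%.

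The *Ccr7*-bearing cells of cluster 0 differed from mature cells in *Fscn1*. At least 10 *Ccr7* UMIs were found in 52 of 77 and 65 of 69 mature cells, of which 48 and 57 also held *Fscn1*. In cluster 0 the same number was found in 42 of 258 and 53 of 293 cells, and of these 0 and 1 held *Fscn1*. The 42 and 53 cells did hold the other surface genes often, *Cd86* in 41 and 51 and *Cd274* in 33 and 46 of them. Among macrophage-like cells, 0 of 1713 and 8 of 4408 had 10 or more *Ccr7* UMIs, and the class stood at 6.42 CPM (4.83 to 8.38) and 9.19 (8.14 to 10.3). NK- or T-like cells, in which CCR7 marks naive and central memory T cells, stood at 47.3 CPM (37.3 to 59.1) and 71.9 (58.7 to 87.3).

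*Fscn1*, which encodes fascin, stood at 1570 CPM (1471 to 1674) and 1895 (1797 to 1996) in mature cells and at 12.9 and 1.70 in the other dendritic-like cells, a log2 ratio of 6.82 (6.41 to 7.25) and 9.45 (8.76 to 10.10). The DTX ratio rests on 8 UMIs outside the mature cells. The PBS ratio rests on 45 such UMIs, of which 35 lay in 2 type 1 dendritic-like cells. In macrophage-like cells only 6 and 12 *Fscn1* UMIs were counted. Unlike *Ccr7*, the gene was also held by non-immune cells: endothelial-like cells stood at 275 CPM (244 to 308) and 209 (178 to 244), and fibroblast-like cells at 27.7 (26.0 to 29.5) and 52.3 (47.8 to 57.0). Dendritic-like cells accounted for 35.6% of all *Fscn1* UMIs in the PBS library and 64.1% in the DTX library, and fibroblast-like cells for 35.2% and 23.0%. Of the cells used, dendritic-like cells were 5.66% and 7.14% and fibroblast-like cells 38.6% and 9.90%.

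**Figure D2:**
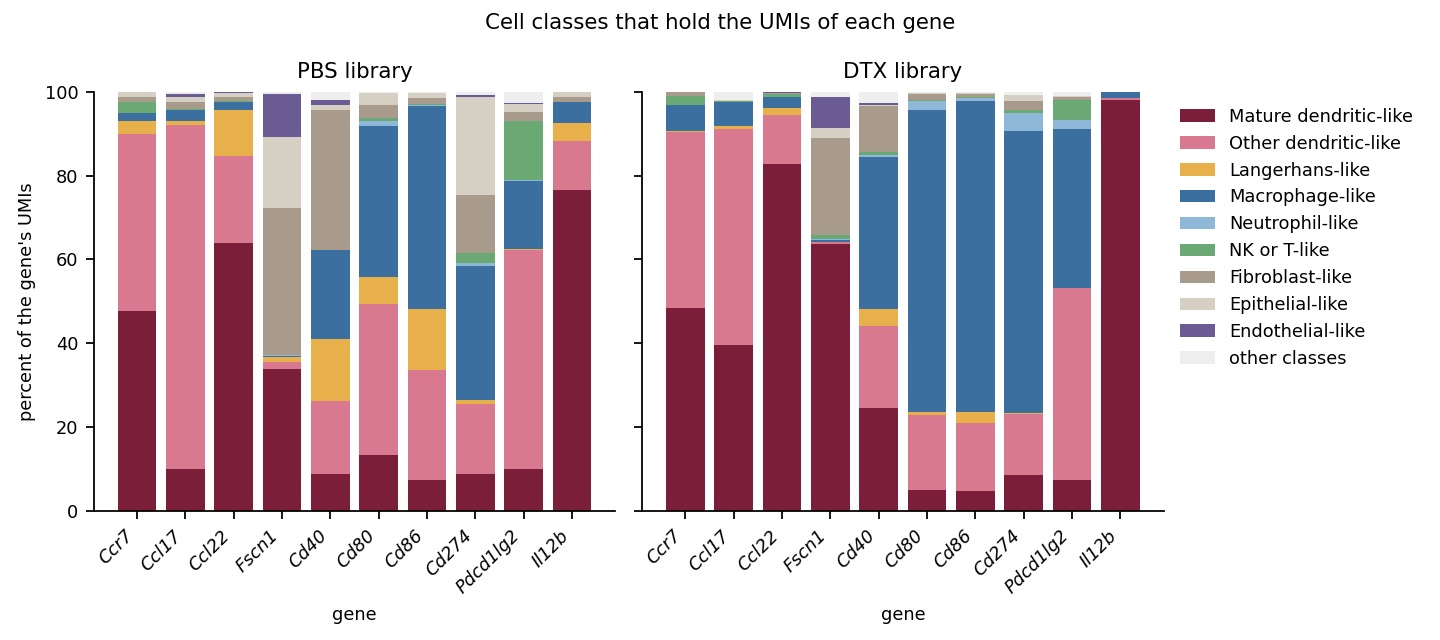
Share of each gene's UMIs (percent, y axis) that each cell class held, for the PBS library (left) and the DTX library (right). Dendritic-like cells hold 84.7% to 94.6% of the *Ccr7*, *Ccl17* and *Ccl22* UMIs in both libraries, and macrophage-like cells hold 71.9% of *Cd80* and 74.2% of *Cd86* in the DTX library. Macrophage-like cells were 66.7% of the cells used in that library.

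*Ccl17* and *Ccl22*, which encode both ligands of CCR4, lie 58.8 kb apart in the same direction on chromosome 8 (GRCm38, *Ccl22* at chr8:94745590-94751699 and *Ccl17* at chr8:94810453-94812036). The sequences just before their starts are shown because this neighbouring pair differed across the subclusters. RefSeq's promoter table (GRCm38.p6) held 7 of the 10 genes, without *Ccr7*, *Cd40* and *Cd86*. The 250 bases before the start were searched in each. Of these, 94 bases for *Ccl22*, 12 for *Fscn1* and all 250 for *Cd80* lie inside the annotated gene itself, and such bases are not printed. Sequences are on the plus strand. The NF-kappa B consensus, which factors of dendritic cell maturation such as RELB are known to bind, was not found in either sequence on either strand.
Ccl17, chr8:94810203-94810452: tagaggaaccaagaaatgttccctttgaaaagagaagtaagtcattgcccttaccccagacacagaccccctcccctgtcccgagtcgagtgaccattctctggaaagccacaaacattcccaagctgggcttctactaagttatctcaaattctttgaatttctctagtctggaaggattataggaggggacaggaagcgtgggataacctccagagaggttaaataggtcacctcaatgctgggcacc
Ccl22, chr8:94745434-94745589: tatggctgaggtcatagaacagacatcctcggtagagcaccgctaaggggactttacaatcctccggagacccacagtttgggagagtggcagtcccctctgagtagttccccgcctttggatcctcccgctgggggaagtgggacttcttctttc

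The pair did not have the same pattern over the subclusters. *Ccl22* was foremost in mature cells, at 1939 CPM (1829 to 2054) in the PBS library and 3205 (3077 to 3336) in the DTX library, a log2 ratio to the other dendritic-like cells of 4.15 (3.98 to 4.32) and 5.46 (5.30 to 5.63). *Ccl17* in the PBS library was instead highest in cluster 0, at 610 CPM (577 to 645), against 276 (235 to 321) in mature cells. Its log2 ratio of mature to other dendritic-like cells there was -0.48 (-0.72 to -0.25). A *Ccl17* UMI was found in 27.7% and 18.3% of the thinned cells of cluster 0 and in 23.0% and 21.7% of mature cells, and these intervals overlap. *Ccl22* was found in 67.6% and 69.6% of thinned mature cells and in 10.4% and 10.6% of cluster 0. Langerhans-like cells held *Ccl22* at 157 CPM (136 to 180) and 106 (78.1 to 141), with *Ccl17* at 14.9 (8.95 to 23.2) and 27.1 (14.0 to 47.4). In macrophage-like cells both were at or below 5.12 CPM in either library.

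In the DTX library the chemokine levels of mature cells turned on 1 cell. It held 441 of the 676 *Ccl17* UMIs and 727 of the 2373 *Ccl22* UMIs of the 69 mature cells, and 227 of the 568 *Cd40* UMIs. It was the highest of the mature cells of that library for 7 of the 10 genes, with 95 *Ccr7* and 115 *Fscn1* UMIs, while it had no *Pdcd1lg2* UMI. With 25620 UMIs it was also the largest mature cell, beside a median of 9920, and its doublet score of 0.120 was exceeded by 1507 other cells used in that library. Without it, *Ccl17* in the mature cells was 329 CPM in place of 913, and its log2 ratio to the other dendritic-like cells was 0.81 (0.60 to 1.02) in place of 2.28 (2.13 to 2.43). More widely, 5 cells held 52.7% of the *Ccl17* UMIs of the 77 mature cells of the PBS library. In the 69 of the DTX library 5 cells held 87.9%. For every gene the intervals of levels and ratios take each UMI as independent, and they are too narrow where few cells hold many UMIs. In mature cells of the DTX library 5 cells also held 50.9% of the *Ccl22*, 55.3% of the *Cd40* and 68.5% of the *Il12b* UMIs. A median mature cell held 0 *Ccl17* UMIs in both libraries, but 5 and 9 of *Ccl22* and 15 and 27 of *Ccr7*.

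**Figure D3:**
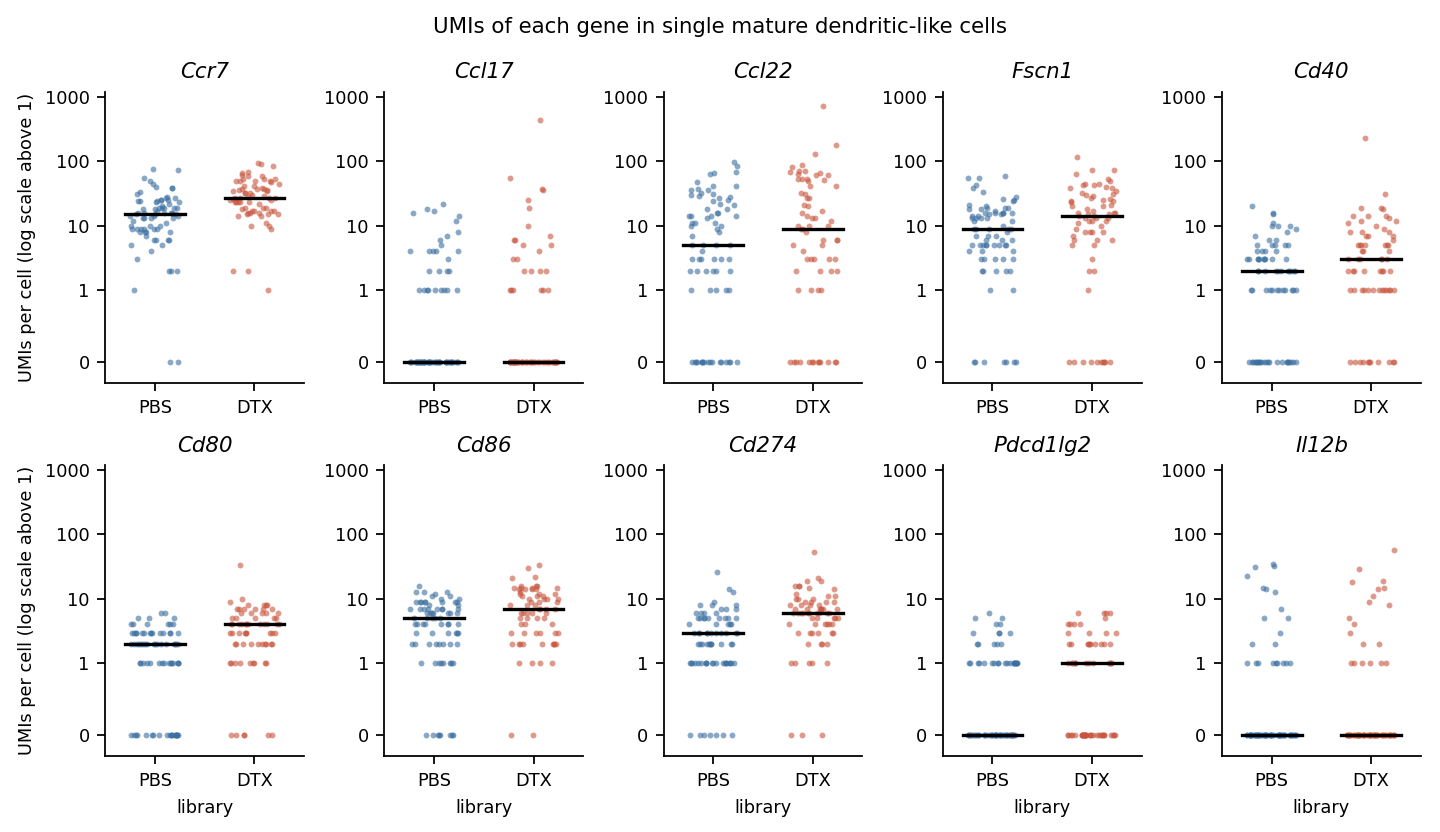
UMIs of each of the 10 genes in single mature dendritic-like cells (points; 77 in the PBS library, 69 in the DTX library; black lines are medians; the y axis is logarithmic above 1). A single DTX cell stands far above the others for *Ccl17* at 441, *Ccl22* at 727 and *Cd40* at 227 UMIs, while most cells have 0 for *Ccl17* and *Il12b*.

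*Cd40*, the receptor through which T cells license dendritic cells, stood at 390 CPM (341 to 443) in mature cells of the PBS library and 767 (705 to 833) in those of the DTX library, or 477 without the cell with 227 UMIs. Other immune classes held it too, with Langerhans-like cells at 306 CPM (276 to 338) and 222 (180 to 270), and cluster 0 at 157 (140 to 175) and 127 (115 to 140). Macrophage-like cells stood at 66.7 CPM (61.3 to 72.5) in the PBS library and 27.7 (25.8 to 29.6) in the DTX library. Fibroblast-like cells, at 25.1 (23.5 to 26.8) and 26.2 (23.1 to 29.6), and pericyte-like cells, at 57.0 (42.5 to 75.0) and 35.1 (26.7 to 45.3), were well above epithelial-like cells at 1.09 and 1.55. *Cd40* therefore had no class that held most of its UMIs: in the PBS library the largest shares were 33.4% in fibroblast-like, 26.1% in dendritic-like and 21.3% in macrophage-like cells. These classes were 38.6%, 5.66% and 21.6% of the cells used in that library.

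*Cd80* and *Cd86*, which encode the CD28 ligands B7-1 and B7-2, were spread over myeloid cells. *Cd86* stood at 659 CPM (595 to 727) and 774 (712 to 840) in mature cells, at 607 (565 to 651) and 721 (644 to 805) in Langerhans-like cells, at 479 (450 to 510) and 532 (507 to 559) in cluster 0 and at 306 (294 to 318) and 300 (293 to 306) in macrophage-like cells. Mature and Langerhans-like cells did not differ beyond counting error in either library. *Cd80* stood at 237 CPM (200 to 280) and 386 (343 to 434) in mature cells, at 129 (114 to 145) and 259 (241 to 277) in cluster 0, at 45.6 (41.1 to 50.4) and 134 (130 to 138) in macrophage-like cells, and at 53.2 (41.3 to 67.5) and 97.2 (70.4 to 131) in Langerhans-like cells. Both genes were near absent from fibroblast-like cells, where 0.235% and 1.08% of thinned cells held *Cd80* and 0.302% and 1.23% held *Cd86*. Macrophage-like cells held 48.3% of all *Cd86* UMIs in the PBS library and 74.2% in the DTX library, and 36.1% and 71.9% of all *Cd80* UMIs. The class itself was 21.6% of the cells used in the PBS library and 66.7% in the DTX library.

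*Cd274* and *Pdcd1lg2*, the genes of PD-L1 and PD-L2, lie 22.8 kb apart in the same direction on chromosome 19, and they too differed in pattern. *Cd274* was highest in mature cells, at 453 CPM (401 to 510) and 690 (632 to 753), with a log2 ratio to the other dendritic-like cells of 1.61 (1.39 to 1.82) and 1.87 (1.71 to 2.03). *Pdcd1lg2* was at the same level in both, at 110 CPM (85.3 to 140) and 122 (97.7 to 149) in mature cells against 99.5 and 119 in the others, a log2 ratio of 0.15 (-0.25 to 0.53) and 0.03 (-0.31 to 0.35). Their intervals reach from -0.31 to 0.53, and a difference of up to this size is within counting error. *Cd274* was broad, with 117 CPM (110 to 125) and 133 (129 to 138) in macrophage-like, 101 (59.7 to 159) and 225 (197 to 254) in neutrophil-like and 25.4 (23.5 to 27.3) and 22.7 (18.2 to 27.9) in epithelial-like cells. Outside dendritic-like cells *Pdcd1lg2* stood at 57.1 CPM (46.1 to 69.9) and 41.6 (31.7 to 53.7) in NK- or T-like cells and at 12.8 (10.5 to 15.5) and 15.4 (14.0 to 16.8) in macrophage-like cells, while only 2 and 0 UMIs were counted in Langerhans-like cells. In neutrophil-like cells it stood at 5.60 CPM from 1 UMI and 23.6 (15.4 to 34.6), and in the 34 and 18 mast-like cells at 96.4 (57.1 to 152) and 70.7 (33.9 to 130). Both genes overlap an annotated gene on the other strand.

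The promoter of *Pdcd1lg2* is shown because it was, of the 7 searched, the one that held the NF-kappa B consensus (in capitals), 234 bases before the start and readable on both strands. Of all 27025 promoters of the table, 3.75% held it within 250 bases, so 1 of 7 is no more than a description.
Pdcd1lg2, chr19:29410669-29410918: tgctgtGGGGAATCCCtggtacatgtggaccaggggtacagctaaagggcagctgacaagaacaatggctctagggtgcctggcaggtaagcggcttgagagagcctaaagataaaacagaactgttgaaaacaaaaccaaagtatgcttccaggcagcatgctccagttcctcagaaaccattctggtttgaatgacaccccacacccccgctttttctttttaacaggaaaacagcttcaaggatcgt

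*Il12b* was the rarest of the 10 genes, with 256 UMIs in all PBS cells used and 207 in all DTX cells. Mature cells held 76.6% and 98.1% of them, at 328 CPM (283 to 377) and 274 (238 to 315). In the other dendritic-like cells it stood at 8.60 CPM from 30 UMIs and 0.213 CPM from 1 UMI, a log2 ratio of 5.10 (4.58 to 5.64) and 7.83 (6.95 to 8.10). Even among mature cells a minority held it, 22 of 77 and 20 of 69, and 5 cells held 69.4% and 68.5% of its UMIs. *Il12a* and *Il23a*, which encode the partners that make interleukin-12 and interleukin-23 of the p40 chain, gave 1 and 4 UMIs in the dendritic-like cells of the PBS library and 3 and 6 in those of the DTX library.

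The genes met in the same cells. Of the 10, a thinned mature cell held a median of 5 in the PBS library and 6 in the DTX library, and 70.3% and 66.7% of these cells held 5 or more. In cluster 0 the median was 2 in both libraries and 6.0% and 6.3% of cells held 5 or more. Macrophage-like cells had a median of 1, and fibroblast-like and epithelial-like cells of 0. Over all dendritic-like cells, those with a *Ccr7* UMI more often held *Ccl22* (39.6% against 6.2% of cells without one in the PBS library, 40.1% against 5.0% in the DTX library), *Fscn1* (36.6% against 2.6%, and 32.1% against 0.3%) and *Cd274* (44.5% against 20.4%, and 51.9% against 25.6%). For *Pdcd1lg2* the shares were 19.5% against 15.3% in the PBS library, with overlapping intervals, and 26.5% against 14.3% in the DTX library. These shares mix the subclusters. Within cluster 0, 0 of 80 and 0 of 77 cells with a *Ccr7* UMI held *Fscn1*. There *Ccl22* was held by 21.3% against 5.3% and 19.5% against 7.2%, and *Cd274* by 31.3% against 23.1% and 36.4% against 28.5%. The intervals overlapped for *Cd274* in both libraries and for *Ccl22* in the DTX library. Only 7 and 1 thinned mature cells lacked *Ccr7*, too few to compare.

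Levels were next set side by side between the libraries within a class. In macrophage-like cells 8 of the 10 genes had at least 50 UMIs in both libraries together, all but *Fscn1* and *Il12b*. One, *Cd80*, was over 2-fold higher in the DTX library, as were 1.64% of 10129 genes, and one, *Cd40*, was over 2-fold lower, as were 3.4%. The log2 ratio of the DTX to the PBS library was 1.54 (1.39 to 1.69) for *Cd80* and -1.24 (-1.39 to -1.09) for *Cd40*. That of *Cd86*, the other CD28 ligand, was -0.03 (-0.09 to 0.03) and that of *Cd274* 0.19 (0.09 to 0.29). The median over the 8 genes was 0.08, and 0.05 over all genes. The share of thinned macrophage-like cells with a *Cd80* UMI was 8.4% in the PBS library and 21.4% in the DTX library, and that with a *Cd40* UMI 11.9% and 4.8%. Without thinning they were 17.6% and 48.3% for *Cd80* and 20.8% and 13.2% for *Cd40*, at median depths of 4716 and 6724 UMIs. *Cd80* was also higher in the fibroblast-like cells of the DTX library, at 7.94 CPM (6.27 to 9.93) against 0.942 (0.648 to 1.32), as was *Cd86*, at 8.87 (7.09 to 11.0) against 2.00 (1.56 to 2.52), in a library with far more macrophages. *Ccr7*, which was low in macrophage-like cells, was higher in fibroblast-like cells too, at 4.02 against 0.942 CPM, a log2 ratio of 1.37 (0.91 to 1.80). *Fscn1* was at 0.89 there. Of the 6 genes tested in fibroblast-like cells 3 were 2-fold higher, as were 2.62% of 11812 genes. The part of free RNA in these levels was not tested.

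The direction of both held under the alternatives tried, but their size varied with the cells counted in the class. With cells over 2000 genes left out, as the study's methods state, 1386 and 878 cells were called macrophage-like. In them *Cd80* had a log2 ratio of 0.84 (0.61 to 1.07) and *Cd40* one of -0.60 (-0.84 to -0.36), and the genes past 2-fold were *Ccr7*, at -2.10 (-2.55 to -1.68), and *Ccl22*, at -1.55 (-2.20 to -0.92). An unnamed cluster of 66 and 1052 cells, led by *Arg1*, *Chil3* and *Cxcl3*, then stood outside the class, although 10 of 10 macrophage markers were raised in it. With it counted in, the ratios were 1.24 for *Cd80* and -1.38 for *Cd40*, both again past 2-fold. They were -2.97 for *Ccr7*, -2.01 for *Ccl22* and -1.78 for *Ccl17*. The class under this limit does not hold the same cells, with 301 *Ccr7* UMIs in its 1386 PBS cells against 54 in the 1713 without the limit. In the macrophage-like cells without this limit the *Ccr7* ratio was 0.46 (0.08 to 0.84), so no direction is given for *Ccr7* in these cells.

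The macrophage-like cells of the libraries lay largely in different subclusters. Most of those of the PBS library were in cluster 2 (779 against 293 cells), led by *H2-Eb1* and *Mid1*, and cluster 4 (621 against 297), led by *Hspa1a* and *Ccl8*. Those of the DTX library were mostly in the *Vcan*-like (34 against 1168), *Cd9*-like (16 against 1131), *Ccl7*-like (126 against 808) and *Il1r2*-led (70 against 625) subclusters. *Cd80* was higher in the DTX library within each of the 6 subclusters that could be compared, with log2 ratios from 0.44 (0.12 to 0.76) in cluster 2 to 1.53 (0.76 to 2.41) in *Ccl7*-like cells and 1.53 (0.69 to 2.47) in *Ifit1*-like cells. *Cd40* did not have 1 direction: it was lower in *Ccl7*-like cells at -1.75 (-2.20 to -1.29) and *Ifit1*-like cells at -1.06 (-1.47 to -0.65), and cluster 5 at -0.87 (-1.50 to -0.18), at -0.85 (-1.90 to 0.43) and -0.29 (-0.62 to 0.04) in *Vcan*-like cells and cluster 2, and higher in cluster 4 at 0.53 (0.09 to 0.97). *Cd86* stayed between -0.41 and 0.20 in all 6. The *Cd80* ratio had an interval above 0 in each of the 6, and that of *Cd40* one below 0 in 3 of the 6. In the PBS library *Cd80* had only 13 UMIs in *Ccl7*-like cells, 13 in *Ifit1*-like cells and 17 in *Vcan*-like cells. The part of the subcluster makeup in the ratios over the class was not tested.

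**Figure D4:**
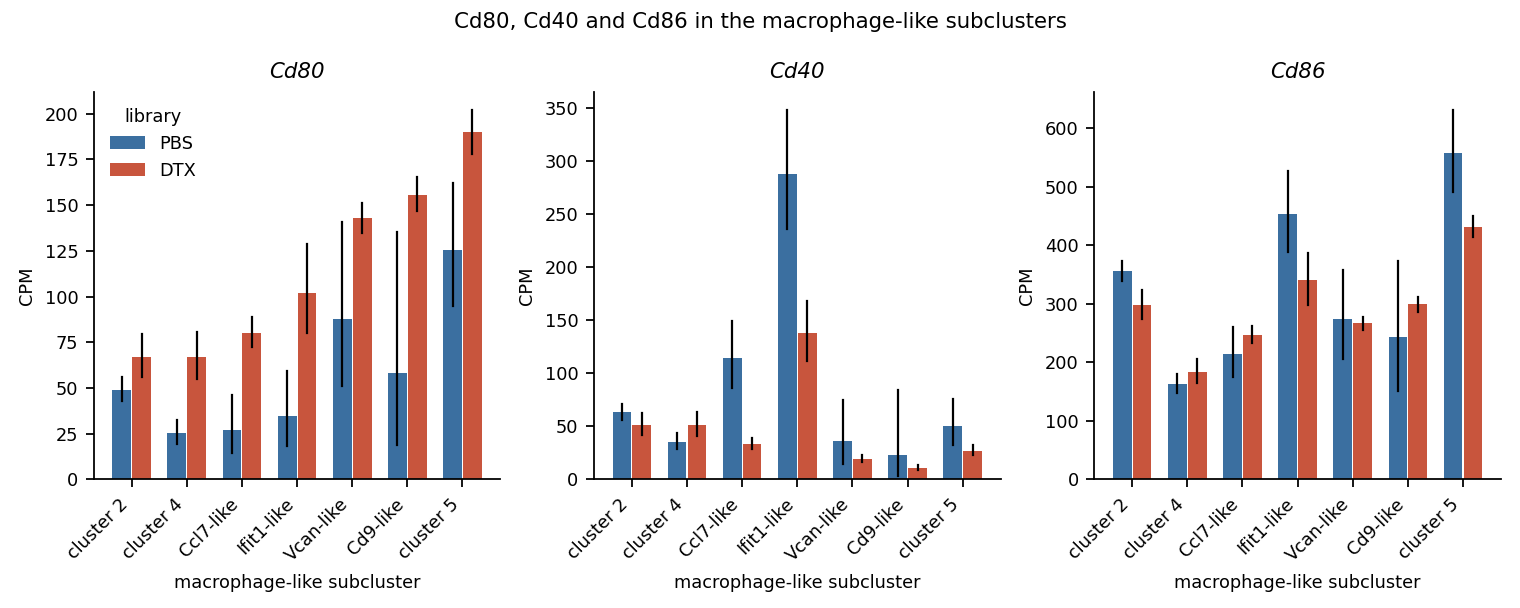
Level (CPM, y axis from 0) of *Cd80*, *Cd40* and *Cd86* in 7 macrophage-like subclusters of the PBS library (blue) and the DTX library (red), with black lines for the 95% counting interval. The red *Cd80* bar is above the blue one in the 6 subclusters compared, whereas for *Cd40* it is below in *Ccl7*-like and *Ifit1*-like cells and above in cluster 4, and the *Cd9*-like bars of the PBS library rest on 16 cells.

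In dendritic-like cells all 10 genes had enough UMIs and none differed by 2-fold, as 1.43% of 8118 genes did upward and 1.47% downward. *Cd80* came nearest, at 128 CPM in the PBS library and 238 in the DTX library, a log2 ratio of 0.88 (0.74 to 1.03). *Cd274* was at 0.41 (0.28 to 0.54), *Ccl22* at 0.40 (0.31 to 0.49), *Ccr7* at 0.27 (0.20 to 0.34) and *Pdcd1lg2* at 0.24 (0.06 to 0.42), while *Ccl17* was at -0.37 (-0.47 to -0.27) and *Il12b* at -0.55 (-0.82 to -0.27). *Fscn1* was at 0.11, *Cd40* at 0.15 and *Cd86* at 0.10. The *Cd40* value joins -0.44 (-0.62 to -0.25) in the dendritic-like cells other than mature ones with 0.98 in mature cells. The median over the 10 genes was 0.20, and 0.09 over all genes. Without the 1 cell rich in chemokine, *Ccl22* was at -0.04 (-0.14 to 0.06), *Cd40* at -0.20 (-0.35 to -0.05) and *Ccl17* at -0.84 (-0.95 to -0.73), while *Cd80* was at 0.85 (0.71 to 1.00).

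The dendritic subclusters differed in which genes were higher. In mature cells 9 of 10 were higher in the DTX library, and the median log2 ratio of the 10 was 0.50 with the 1 chemokine-rich cell included. Over all 3083 genes tested the median was 0.05, and 1.49% were 2-fold higher, as 1 of the 10 was. The share of all genes that were merely higher was not taken, so the 9 of 10 is a description. Among the 9 was *Ccl17* at 1.72 (1.48 to 1.98), with *Cd40* at 0.98 (0.75 to 1.20), *Ccl22* at 0.72 (0.62 to 0.83), *Cd80* at 0.70 (0.41 to 1.00) and *Cd274* at 0.61 (0.39 to 0.82). Without the 1 cell, *Ccl17* was at 0.25 (-0.04 to 0.55), *Ccl22* at 0.25 (0.14 to 0.36) and *Cd40* at 0.29 (0.05 to 0.54), and *Cd80* and *Cd274* stood at 0.57 and 0.50. The remaining genes were then at 0.38 (*Ccr7*), 0.20 (*Fscn1*), 0.25 (*Cd86*), 0.19 (*Pdcd1lg2*) and -0.32 (*Il12b*). In cluster 0 *Ccl17* was lower in the DTX library, 610 against 289 CPM, a log2 ratio of -1.08 (-1.20 to -0.95), and *Cd80* was higher, 129 against 259 CPM and 1.00 (0.80 to 1.21). *Ccl22* in cluster 0 was at -0.45 (-0.68 to -0.23). Of the 6241 genes tested in cluster 0, 1.54% were 2-fold higher and 1.78% 2-fold lower. *Ccl17* was thus lower in the DTX library in cluster 0. Type 1 dendritic-like cells held 51 against 4 of its UMIs, but 1 PBS cell held 41 of the 51. Cluster 3 held 41 against 2, below the limit of 50 UMIs for ratios. In mature cells the ratio was -0.22 without the 5 cells with most of its UMIs in each library. No direction is therefore given for *Ccl17* in mature cells. Other markers of cluster 0 moved as well: *Lyz2* from 4187 to 2249, *C1qa* from 485 to 263, *Mgl2* from 1023 to 642 and *Clec10a* from 199 to 373 CPM. At a resolution of 0.6, a cluster with 7 of 10 macrophage markers raised held 203 and 112 cells, and an unnamed one with *Klrd1* and *Clec10a* among its leading genes 55 and 180. The part of this makeup in the *Ccl17* and *Cd80* levels of cluster 0 was not tested.

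Type 1 dendritic-like cells, which present antigen to CD8 T cells, were higher in the DTX library for *Cd80* at 56.6 against 195 CPM, a log2 ratio of 1.76 (1.27 to 2.29), for *Pdcd1lg2* at 56.6 against 176 CPM and 1.62 (1.11 to 2.15), and for *Cd274* at 130 against 258 CPM and 0.98 (0.62 to 1.34). *Cd86* was at 0.02 (-0.25 to 0.29). These rest on 43 to 240 UMIs per library, spread over 20 or more cells. Of the 3192 genes tested in type 1 dendritic-like cells 2.85% were 2-fold higher and 2.04% 2-fold lower. *Ccl17* and *Ccl22* were lower, at 51 against 4 and 56 against 6 UMIs, but 41 and 33 of the PBS UMIs lay in 1 cell each. *Ccr7* was higher, at 144 (118 to 173) against 392 CPM (347 to 442), although 5 cells held 95 of its 109 UMIs in the PBS library. In Langerhans-like cells 5 of the 10 genes had enough UMIs, 2 higher and 3 lower in the DTX library, from 38 cells there. *Cd80* was at 0.86 (0.28 to 1.42), *Cd86* at 0.25 (0.06 to 0.44), *Cd40* at -0.46 (-0.80 to -0.14) and *Ccl22* at -0.55 (-1.04 to -0.09). *Ccr7* passed 2-fold at -1.20 (-2.13 to -0.37), as did 1.96% of 3925 genes downward. It rests on 88 and 13 UMIs, and 5 cells held 75 of the 88. Neutrophil-like cells had *Cd274* at 1.15 (0.46 to 1.92) on only 18 UMIs in the PBS library, with a median depth of 1216 and 1908 UMIs per cell. Of the 2730 genes tested there 6.34% were 2-fold higher. In cluster 3 *Cd86* was lower in the DTX library, at -1.44 (-1.90 to -0.97), as was *Cd40*, at -1.38 (-2.15 to -0.61), and *Cd80* was at -0.59 (-1.24 to 0.07). Of the 3208 genes tested in cluster 3, 5.05% were 2-fold lower and 9.35% 2-fold higher. *Cd40* was also lower in type 1 dendritic-like cells, at -0.71 (-1.39 to -0.06), and in cluster 0, at -0.30 (-0.52 to -0.09). Some markers differed too. In type 1 dendritic-like cells *Xcr1* stood at 100 and 53.0 CPM and *Cd207* at 248 and 47.3, but *Clec9a* at 138 and 127. In cluster 3 *Cd209a* stood at 258 and 43.0 CPM and *Mgl2* at 483 and 63.8, but *Lyz2* at 1959 and 1864. The part of this makeup in the ratios of both subclusters was not tested. In the few plasmacytoid-like cells *Ccr7* stood at 314 CPM (250 to 391) and 398 (317 to 494), whereas no *Ccl17* UMI was counted, which allows up to 11.6 and 14.4 CPM.

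**Figure D5:**
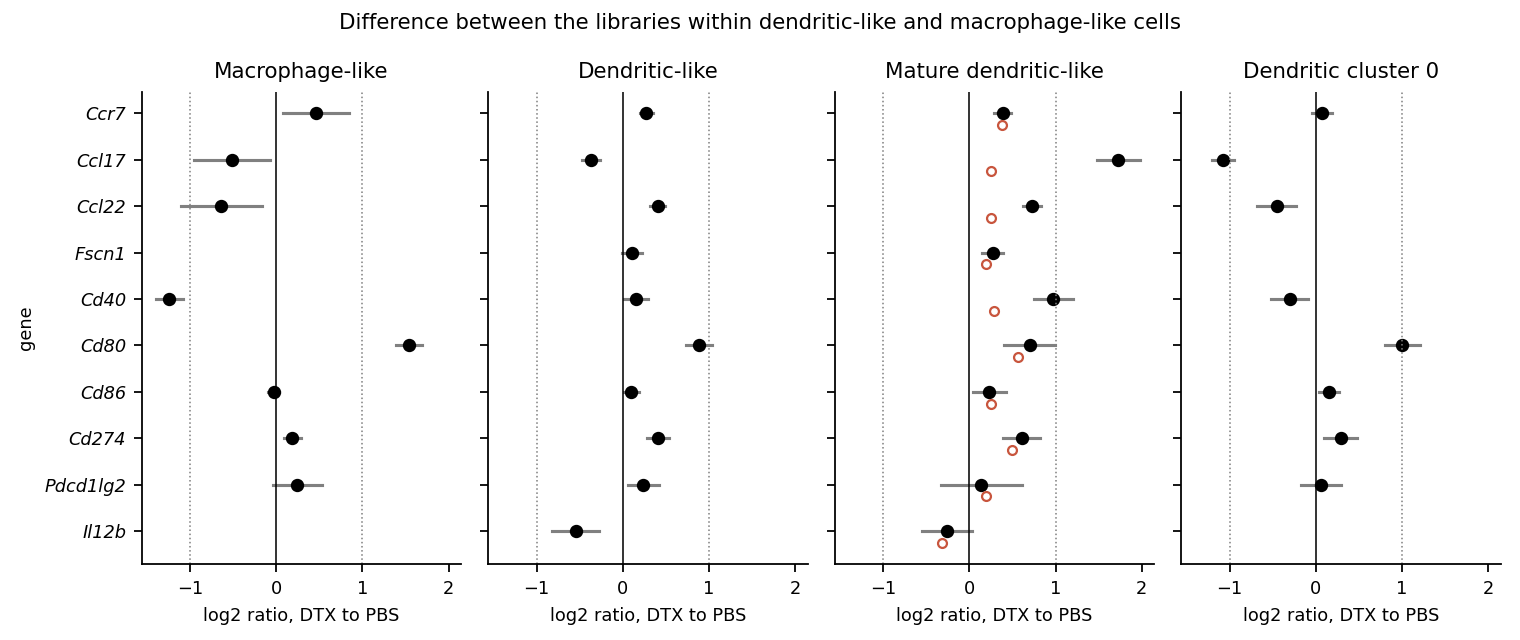
Log2 ratio of the DTX to the PBS library for each gene with at least 50 UMIs in 4 groups of cells (black points, with grey lines for the 95% counting interval; dotted lines mark 2-fold). *Cd80* lies right of 0 in all 4 panels, *Cd40* lies past 2-fold to the left only in macrophage-like cells, and in mature cells the open circles, without 1 cell, bring *Ccl17* from 1.72 to 0.25.

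A list of 32 further genes of dendritic maturation was set beside the 10. In the PBS library 20 of the 22 with enough UMIs were higher in mature than in other dendritic-like cells, 14 of them by 2-fold, and in the DTX library 24 of 25, 17 of them by 2-fold. Of all genes tested 9.83% and 9.13% were 2-fold higher, while for genes merely higher no such share was taken. The list was chosen for maturation with earlier results of these data known, so these counts are descriptions. Beyond 4 on the log2 scale in both libraries were *Ccl5*, a chemokine for T cells, at 5.05 and 6.30, *Cd70*, a costimulatory ligand of CD27, at 5.04 and 5.60, and *Cd200*, a ligand that restrains myeloid cells, at 4.07 and 5.43. *Tnfsf4*, the OX40 ligand, was at 3.11 and 3.72, *Batf3*, a transcription factor of type 1 dendritic cells, at 2.43 and 2.82, *Stat4* at 2.42 and 2.20 and *Relb*, an NF-kappa B subunit, at 1.87 and 2.00. *Cd44*, an adhesion receptor for hyaluronan, was lower in mature cells, at -1.43 and -1.31. Between the libraries, 27 of the 32 had enough UMIs in dendritic-like cells, 17 higher and 10 lower in the DTX library, with a median log2 ratio of 0.08 beside 0.09 over all genes. *Cd1d1*, which presents lipids, alone passed 2-fold at 1.03 (0.41 to 1.66), as did 1.43% of all genes upward. In macrophage-like cells 8 of 24 were higher and 16 lower, and 4 were past 2-fold, all lower: *Batf3* at -1.30, *Ccl5* at -1.29, *Il10* at -1.05 and *Cd63* at -1.03. Of all genes tested in these cells 3.4% were 2-fold lower. The median of the 24 was -0.15, and 0.05 over all genes.

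The partners on other cells were listed as 14 genes. In NK- or T-like cells, 225 and 152 in number, the CD28 gene stood at 171 CPM in the PBS library and 91.0 in the DTX library, *Ctla4* at 289 and 267, *Pdcd1*, the gene of PD-1, at 97.6 and 147, and *Ccr4*, the receptor of CCL17 and CCL22, at 12.9 and 33.9. Of the CCR7 ligands, *Ccl19* stood at 102 and 72.6 CPM in fibroblast-like cells and *Ccl21a* at 218 and 111 in endothelial-like cells, where it was found in 2 of 73 and 2 of 56 cells. In macrophage-like cells 3 of the 14 had enough UMIs. Of these, *Cd28* passed 2-fold at -1.13 (-1.54 to -0.71), from 58 and 79 UMIs, as did 3.4% of all genes downward. In dendritic-like cells 4 had enough and *Pdcd1* passed 2-fold at 1.16 (0.71 to 1.63), as did 1.43% of all genes upward. It went from 11.3 to 26.5 CPM there, and in type 1 dendritic-like cells it was at 11.8 and 60.1 CPM. With 10 CPM added before the logarithm neither gene passed 2-fold.

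Finally, the pattern of each gene over 26 points, each a cell group of a single library, was set beside that of 12142 genes, as log2(CPM + 1). The 26 points share 2 libraries and the depth of each class, so the correlations are descriptions. Among the 10 genes the highest were *Cd80* with *Cd86* at r = 0.93 and *Ccr7* with *Ccl22* at r = 0.86, whereas *Fscn1*, with its endothelial and fibroblast levels, had r = 0.15 with *Ccr7* and -0.14 with *Cd86*, or 0.40 and 0.04 with 10 CPM added in place of 1. The likest genes were *Map3k1* and *Tnfaip8* for *Ccr7* (both r = 0.93), *Ccl22* (0.81) and *Tm4sf5* (0.78) for *Ccl17*, and *Rogdi* (0.93) and *Nfkbib* (0.91) for *Ccl22*. For *Fscn1* they were *Ccser2* (0.86) and *Slco5a1* (0.83), and for *Il12b* *Eno3* (0.86) and *Ccl22* (0.83). For *Cd40* they were *Map4k4* (0.94) and *Nostrin* (0.88), for *Cd80* *Spi1* and *Ctss* (both 0.93) and for *Cd86* the antigen presentation genes *Cd74* and *H2-Aa* (both 0.98). *Sema4a* and *C130026I21Rik* (both 0.91) were likest to *Cd274*, and *Stat4* (0.92) and *Sipa1l1* (0.91) to *Pdcd1lg2*. With 10 CPM added in place of 1, *Map4k4* and *Cd74* stayed among the 2 likest genes of *Cd40* and *Cd86*, as did *Rogdi*, *Eno3*, *Ccser2*, *Sema4a*, *C130026I21Rik* and, for *Ccl17*, *Ccl22*, while the other genes named were replaced.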

How the data were processed

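The authors aligned the reads to mm10 with Cell Ranger and deposited raw UMI counts per gene and cell, not normalized. The methods and the submitters' processing notes differ in its version (6.1.1 in the notes). The methods name technical but no biological replicates, and which captures a library joins is not given in the sources used here.

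Cells were kept from 500 genes upward if no more than 6% of their UMIs were mitochondrial. Doublets were scored with Scrublet in scanpy 1.11.5, which called 382 cells of the PBS library and 0 of the DTX library, where the top 8% of scores were removed instead. Cells were clustered with Seurat 5.3.0 in R 4.3.3 (2000 variable genes, 30 components, resolution 0.2, dendritic 0.3, macrophage 0.5). A marker was raised at 2 times the median cluster, with 50 CPM added, in at least 10% of cells. The marker list with most genes among the 10 leading genes of a cluster was taken first. A name needed at least 1 such leading marker and 3 raised markers of that list. Ratios had 1 CPM added and needed 50 UMIs in both libraries together and 20 cells in each. Intervals (95%) were exact Poisson for levels, Clopper-Pearson for shares and conditional binomial for ratios, computed with scipy 1.17.1 and tested on simulated data, and cover counting error only. A count of 0 allows up to 3 counts.

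The 10 genes, the lists and the rule for named genes (members, list genes past 2-fold, the 2 likest genes, *Mrc1* and class markers) were chosen with earlier results of these data known. Alternatives that left out single cells, added the unnamed cluster or raised the mitochondrial limit for the mature share were chosen after seeing the data.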

Additional observations from a re-analysis of the deposited data

How the results depend on the processing

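Of the counts and shares that answer a comparison, 33 values under alternatives stayed within their limits and 10 moved. Of the remaining values, 314 stayed and 364 moved. A change of direction between the libraries was looked for only in genes past 2-fold. Over the macrophage-like class these were *Cd80* and *Cd40*, which kept their direction, and over the dendritic-like class there were none. Below 2-fold, *Ccr7* in macrophage-like cells went from 0.46 to -2.10 with cells over 2000 genes left out. The log2 ratio of *Ccl17* in mature cells, 1.72, was -0.22 without the 5 cells with most of its UMIs in each library. With 10 CPM added before the logarithm, the pathway genes past 2-fold in macrophage-like cells were 2 in place of 4 and in dendritic-like cells 0 in place of 1, and the partner genes 0 in place of 1 in both classes. With cells over 2000 genes left out, the pathway and partner genes past 2-fold in macrophage-like cells were 1 and 0. The mature dendritic-like share of immune cells in the PBS library, 2.88%, was 3.78% at a resolution of 0.2 or 0.6 and 4.11% at a mitochondrial limit of 10%, at which the DTX share was 1.65% in place of 1.24%. At a resolution of 0.2 the mature cluster held 101 PBS and 85 DTX cells, and no cluster was named plasmacytoid-like. In the reported clustering the mature cells were 77 and 69 and the plasmacytoid-like cells 24 and 16. Another cluster was named mature at 0.6 and at the limit of 10%. Its leading genes included *Cd7*, *Tcf4* and *Cd209e*, as did those of the plasmacytoid-like cells. Whether the same cells changed name was not tested, and neither was the part of cells added by the 10% limit. With the limit of 2000 genes, 40 dendritic-like cells were left in the PBS library and 3 in the DTX library, too few to compare. Without the limit on low counts 3 in place of 2 of the 10 genes passed 2-fold in macrophage-like cells. In the PBS library 6 in place of 7 of them were 2-fold higher in mature cells under each of the 5 alternatives, and *Ccl17* there had log2 ratios of mature to other cells from -1.18 to -0.96 under them, beside 1.58 to 1.86 in the DTX library. No paired analysis was possible because each group has 1 library, and none could be left out. *Il12b* was limited by its 256 and 207 UMIs over all cells used.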
